A study of Homo sapiens with 9 samples.

Results

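A set of the tubulin genes expressed by MEC1 cells, with the tubulin-binding gene STMN1, was followed across 2D culture and 3D bioprinted culture. The 10 genes were chosen by name from the 59050 gene symbols of the count table. No measured value entered the rule, but earlier results of these data were known. They were the alpha-tubulin genes TUBA1A, TUBA1B, TUBA1C and TUBA4A, the beta-tubulin genes TUBB, TUBB2A, TUBB4B and TUBB6, the gamma-tubulin gene TUBG1, and STMN1, which encodes stathmin. All 10 were among the 13463 genes retained for testing, that is, with a CPM (reads of the gene scaled to a common library total) above 1 in at least 3 samples. MEC1 is an established B-cell line from chronic lymphocytic leukemia (CLL), and all samples came from this 1 line. Bulk RNA was sequenced from 3 samples in conventional suspension culture (2D, no time given in the labels), 3 samples printed in a hydrogel scaffold and harvested after 7 days (3D_7d), and 3 harvested after 14 days (3D_14d). No drug or genetic change separated the groups. The scaffolds went through TRIzol, DNase I and a column kit, while the 2D cells went through the column kit alone, so that culture and extraction cannot be told apart in any comparison with 2D. Both 3D time points were extracted in the same way.

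Microtubules are hollow polymers of alpha- and beta-tubulin heterodimers that grow and shrink at their ends. They build the mitotic spindle and carry intracellular transport, and in lymphocytes they organise the cell around the centrosome. Vertebrates encode each tubulin in several isotype genes that differ mainly in their C-terminal tails. Gamma-tubulin is not part of the polymer wall but sits in a ring complex that starts new microtubules, chiefly at the centrosome. Stathmin binds free heterodimers and favours microtubule shrinkage, and it is known as a highly expressed protein of proliferating and leukemic cells. Cells also adjust tubulin mRNA to the pool of free tubulin, a feedback in which TTC5 recognises the newly made tubulin chain and mRNA decay follows.

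The assigned reads of a sample numbered 54662799 to 85968686, mitochondrial genes took 1.44% to 2.83% of them, and the TMM scaling factors of edgeR ranged from 0.884 to 1.12. Values below are CPM scaled with these factors, and levels of different genes are compared only as RPKM, which divides the same CPM by the exon length in kilobases. A gene is called when the adjusted p of edgeR's quasi-likelihood test is at most 0.05. All 6 B-cell markers listed were retained, with summed levels of 2511 to 2531 CPM in 2D, 2767 to 3478 in 3D_7d and 3430 to 3784 in 3D_14d. They did not move together. CD22 went from a mean of 541 CPM in 2D to 249 in 3D_7d and 332 in 3D_14d. It was called down in both (edgeR adjusted p = 0.000736 and 0.014). MS4A1 was called up in 3D_7d, and CD79A and CD79B were called up in 3D_14d. Of the 6 T-cell markers only TRAC was retained, and it made up nearly all of their summed 311 to 716 CPM, whereas CD3D, CD3E and CD3G stayed at or under 1 CPM. None of the 6 monocyte and granulocyte markers was retained (summed at most 0.965 CPM), and the 6 fibroblast and epithelial markers summed to at most 8.37 CPM. KRT5, a keratin of basal epithelium, went from a mean of 0.0179 CPM in 2D to 1.27 CPM in 3D_7d and 3.57 CPM in 3D_14d and was called up in both (adjusted p = 0.000103 and 3.39e-05). COL1A1, a fibroblast collagen, went from 6.93 to 3.003 and 3.20 CPM (adjusted p = 0.0334 and 0.0524), its day 7 call being lost without any 1 of the 2D samples or 3D_7d replicate 2 or 3 (adjusted p of up to 0.102). The other 4 of these markers did not exceed 0.684 CPM, and the part of other cells in the results was not tested.

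The genes lie on 6 chromosomes besides the shared cluster of TUBA1A, TUBA1B and TUBA1C. In GRCh38, TUBA1B (chr12:49127782-49131395, minus strand), TUBA1A (chr12:49184795-49189080, minus strand) and TUBA1C (chr12:49227926-49274603, plus strand) stand side by side. TUBA4A is at chr2:219249710-219254608 on the minus strand. TUBB (chr6:30720352-30725426, plus strand) and TUBB2A (chr6:3153666-3157544, minus strand) share a chromosome, TUBB4B is at chr9:137241287-137243707 (plus strand) and TUBB6 at chr18:12308059-12337225 (plus strand). TUBG1 is at chr17:42609683-42615238 on the plus strand, and STMN1 at chr1:25885440-25906991 on the minus strand. The counts cover the union of each gene's exons, coding and untranslated.

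Tubulin genes resemble each other and their pseudogenes, which bears on how far a count belongs to 1 gene. Of all 100-base stretches of exon, the length of the reads, 67.5% of those in TUBB2A had another exact copy in the genome, against 45.5% in TUBA1B, 26.4% in TUBG1, 18.4% in TUBA1A and 11.1% in TUBA1C. The share was between 1.70% and 3.77% in TUBB, TUBA4A and TUBB4B, and it was 0 in TUBB6 and STMN1. How reads with several alignments and the strand of reads were handled is not given in the sources used here. Exons of an opposite-strand gene cover 57.7% of the exonic bases of TUBA1B (AC011603.2, a mean of 5.65 CPM in 2D, 1.37 in 3D_7d and 0.893 in 3D_14d), 24.5% of TUBA4A (STK16), 20.5% of TUBB6 (AFG3L2), 19.2% of TUBA1C and 16.8% of TUBB. Without strand, reads in these bases cannot be told apart. The 42 tubulin and stathmin pseudogenes in the table summed to 1.81 to 4.81 CPM per sample, and the lowest level of any member other than TUBB2A was 11.7 CPM. The values of TUBB2A, TUBG1 and the individual TUBA1 genes are therefore uncertain in level, while in STMN1 2.63% of exonic bases carry the microRNA gene MIR3917, which had no counts.

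Promoter sequence from RefSeq (GRCh38.p14) was available for all 10 genes, and a few stretches are shown because they carry the elements known from cell-cycle and housekeeping promoters or belong to genes that moved together or apart. The 250 bases before each gene's principal start were searched on both strands for the E2F-type motifs TTTGGCGC and TTTCCCGC, the cell-cycle homology element TTTGAA, and the CCAAT box. TTTGGCGC was present in 0.55% of 35114 promoters and in 2 of the 10 genes, STMN1 (its first base 38 bases before the start) and TUBG1 (31 bases before). The 30 bases around it read as follows, 5′ to 3′, with the motif in capitals (STMN1 chr1:25906439-25906468, minus strand, and TUBG1 chr17:42609641-42609670, plus strand).
STMN1: acgtgcctctgTTTGGCGCttttgtgcgcg
TUBG1: ggagctggttgTTTGGCGCctgcgtcttgc
CCAAT was present in 32.01% of all promoters and in 7 of the 10 genes (not in TUBA1B, TUBA4A or TUBB2A), TTTGAA in 13.3% and in TUBA1C and TUBB4B, and TTTCCCGC in 1.39% and in none of the 10. The stretch before the principal start of STMN1 (chr1:25906467-25906669, minus strand) and those of TUBB (chr6:30720102-30720351, plus strand), TUBA1B (chr12:49131398-49131645, minus strand) and TUBB2A (chr6:3157545-3157794, minus strand) are given next. CCAAT is in capitals, and bases that lie in an exon of a protein-coding transcript are left out. The STMN1 stretch lies within the gene's span given above, which begins further upstream. It stops 48 bases before the principal start, where such an exon begins. In TUBG1 the bases free of such exons stop 186 bases before the start, so both TTTGGCGC motifs lie past these points.
STMN1: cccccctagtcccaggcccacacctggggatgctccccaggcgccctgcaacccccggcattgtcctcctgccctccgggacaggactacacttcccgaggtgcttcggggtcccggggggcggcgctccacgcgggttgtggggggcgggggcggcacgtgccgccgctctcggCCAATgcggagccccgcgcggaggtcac
TUBB: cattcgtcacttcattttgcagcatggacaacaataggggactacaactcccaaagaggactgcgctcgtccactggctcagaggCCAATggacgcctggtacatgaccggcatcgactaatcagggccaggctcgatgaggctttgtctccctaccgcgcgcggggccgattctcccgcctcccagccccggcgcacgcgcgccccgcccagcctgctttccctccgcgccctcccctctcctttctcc
TUBA1B: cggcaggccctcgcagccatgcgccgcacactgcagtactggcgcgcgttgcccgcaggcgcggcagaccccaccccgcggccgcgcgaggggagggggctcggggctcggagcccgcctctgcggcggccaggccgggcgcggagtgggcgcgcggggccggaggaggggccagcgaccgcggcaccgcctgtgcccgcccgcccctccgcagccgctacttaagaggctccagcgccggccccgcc
TUBB2A: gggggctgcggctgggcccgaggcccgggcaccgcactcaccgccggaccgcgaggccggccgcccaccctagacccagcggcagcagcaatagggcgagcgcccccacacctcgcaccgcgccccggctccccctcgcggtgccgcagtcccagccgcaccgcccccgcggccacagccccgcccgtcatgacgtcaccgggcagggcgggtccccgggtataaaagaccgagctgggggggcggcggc
A match describes these letters only and is no measurement of binding.

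At day 7, STMN1 was called down, TUBG1 and TUBB2A were called up, and the other 7 genes did not pass the threshold. In 3D_7d vs 2D, 2 of the 10 genes were called up, where 22.2% of all tested genes were, and 1 was called down, where 21.2% of all genes were. Neither count exceeded what these shares of all genes give for 10 genes. The median log2 fold change of the 10 genes was 0.15 against −0.0039 for all genes, and it was −0.0078 when only total counts were used for scaling. In 3D_14d vs 2D, 1 gene was called up and 5 were called down, beside 19% and 17.2% of all genes, with a median of −0.50 against 0.02. Between the time points, in 3D_14d vs 3D_7d, none of the 10 was called up and 7 were called down, beside 14.5% and 13.6% of all genes, with a median of −0.77 against −0.0012. The summed level of the 10 genes was 4500 to 4817 CPM in 2D, 3915 to 4230 in 3D_7d and 2218 to 3105 in 3D_14d. With only the 6 samples of the comparison in the fit, day 7 gave 5 genes up (TUBA1C, TUBA4A and TUBB4B added) and 3 down (TUBA1B and TUBB added). The shares of all genes called in that fit are not given here, so these counts cannot be set beside them. Both comparisons with 2D share the same 2D samples.

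**Figure D1:**
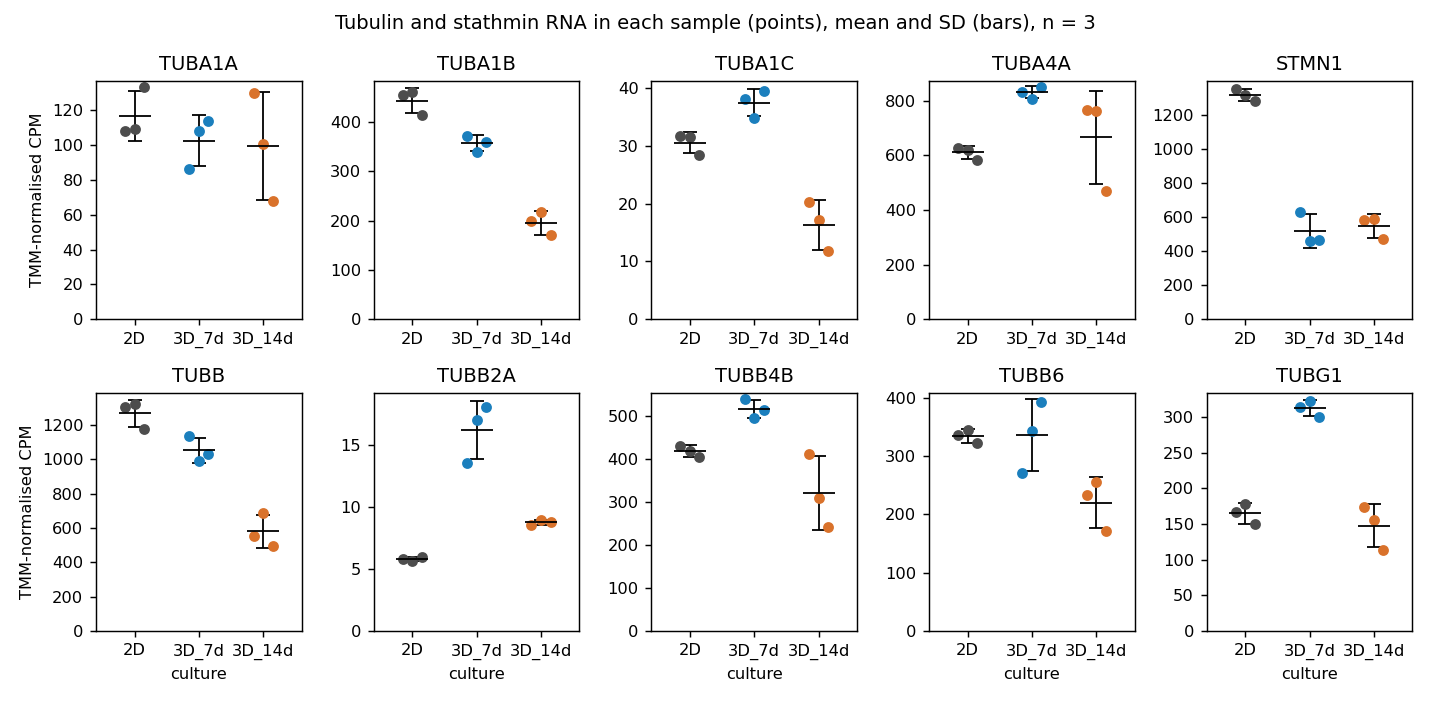
Level of each gene (TMM-normalised CPM, axes starting at 0) in the 3 samples of 2D, 3D_7d and 3D_14d, with points for samples and bars for the mean and SD of n = 3. STMN1 fell from at least 1278 CPM in 2D to at most 629 CPM in 3D, TUBG1 peaked in 3D_7d, and TUBA1B and TUBB were lowest in 3D_14d.

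STMN1 was the member that fell most at day 7. Its level was 1349, 1316 and 1278 CPM in the 2D samples, 629, 455 and 466 CPM at day 7, and 584, 589 and 468 CPM at day 14. The 2D samples stood far above all 6 scaffold samples, while the ranges of the time points overlapped. The level was 2.54-fold lower in 3D_7d (log2 fold change −1.35, SE 0.16, edgeR adjusted p = 5.27e-05) and 2.40-fold lower in 3D_14d (−1.26, SE 0.16, adjusted p = 0.000114). From day 7 to day 14 the log2 difference was 0.08 (SE 0.16, adjusted p = 0.72). In bulk RNA, less STMN1 RNA per cell and a smaller share of cells that carry it cannot be told apart.

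Proliferation markers moved in the same samples. Of the 12 listed, 8 fell and 1, PCNA, rose in 3D_7d, and all 12 fell in 3D_14d, with summed levels of 2619 to 2670 CPM in 2D, 1583 to 2052 in 3D_7d and 812 to 1135 in 3D_14d. The PCNA rise (log2 fold change 0.35, adjusted p = 0.044) was not called under any of the other 3 scalings. MKI67, a marker of cycling cells, changed by −1.88 (adjusted p = 0.000244) and CCNB1, the cyclin of mitotic entry, by −1.06 (adjusted p = 0.000234) at day 7. At day 14, CCNA2 changed by −1.80 (adjusted p = 1.21e-05) and CDK1, the kinase of mitotic entry, by −1.74 (adjusted p = 2.61e-05). The part of cycling cells in the values of STMN1 and the tubulins was not tested. The other stathmin genes were scarce: STMN2 and STMN3 had group means between 1.02 and 2.76 CPM with no call in any of the 3 comparisons, and STMN4 did not exceed 0.728 CPM.

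TUBA1B, the most abundant of the TUBA1 isotypes, was lower in each later group. It was at 455, 460.0 and 413 CPM in 2D, at 372, 339 and 359.8 CPM in 3D_7d, and at 199, 218 and 169.7 CPM in 3D_14d. No ranges overlapped between the 3 groups. The day 7 difference of −0.31 (SE 0.14) did not pass (edgeR adjusted p = 0.081), and it did pass without any 1 of the 3D_14d samples (adjusted p of 0.0303 to 0.0463) and with DESeq2 (0.045). At day 14 the level stood 2.26-fold lower than in 2D (−1.18, SE 0.14, adjusted p = 6.65e-05) and 1.82-fold lower than at day 7 (−0.87, SE 0.14, adjusted p = 0.000972).

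TUBA1C, a close relative of TUBA1B, was much scarcer and was called only at the late time point. Its level was 31.7, 31.6 and 28.4 CPM in 2D, 38.1, 34.9 and 39.4 CPM in 3D_7d and 20.3, 17.1 and 11.7 CPM in 3D_14d. All day 7 samples lay above 2D and all day 14 samples below. The day 7 difference of 0.29 was not called (edgeR adjusted p = 0.23), whereas day 14 was 1.87-fold below 2D (−0.90, SE 0.19, adjusted p = 0.00315) and 2.29-fold below day 7 (−1.20, SE 0.19, adjusted p = 0.00113).

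TUBA1A, the isotype best known from developing neurons, was not called in any comparison. It was at 108, 109 and 134 CPM in 2D, 86.2, 108 and 114 CPM in 3D_7d and 130.2, 101 and 67.8 CPM in 3D_14d. The groups overlapped throughout, and the log2 fold changes were −0.19, −0.23 and −0.04 (edgeR adjusted p of 0.49, 0.41 and 0.89). Because reads can be split between these near-identical genes, TUBA1A, TUBA1B and TUBA1C were also added up. Their sum changed by −0.25 at day 7 (SE 0.15, adjusted p = 0.19), by −0.92 at day 14 (SE 0.15, adjusted p = 0.000519), and by −0.67 between the time points (SE 0.15, adjusted p = 0.0056).

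TUBA4A, an alpha isotype whose gene does not encode the usual C-terminal tyrosine, lay above 2D at day 7. It was at 628, 619.7 and 585 CPM in 2D, 833, 808 and 852 CPM in 3D_7d and 765, 763 and 469 CPM in 3D_14d. Every day 7 sample was above every 2D sample, and at day 14 replicates 1 and 2 were above 2D while replicate 3 was below. The day 7 difference of 0.44 (SE 0.18) narrowly missed the threshold (edgeR adjusted p = 0.056) and was called with DESeq2 (0.045), with the replicate number as a block (0.0493) and without any 1 of the 3D_14d samples (0.0045 to 0.0433). At day 14 it differed by 0.12 (SE 0.17, adjusted p = 0.61), and without 3D_14d replicate 3 by 0.33 (adjusted p = 0.0387). With total counts alone as scaling the day 14 value was −0.09.

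Among the beta isotypes, TUBB, the broadly expressed class I gene, had a pattern close to that of TUBA1B. It was at 1306, 1321 and 1179.8 CPM in 2D, 1135, 991 and 1033 CPM in 3D_7d and 555, 688 and 497 CPM in 3D_14d. The 3 groups did not overlap. The day 7 difference of −0.27 was not called (edgeR adjusted p = 0.16), and day 14 was 2.19-fold below 2D (−1.13, SE 0.15, adjusted p = 0.000154) and 1.81-fold below day 7 (−0.86, SE 0.15, adjusted p = 0.00168). Over the 9 samples, the log2 CPM of TUBB and TUBA1B had a Pearson r of 0.995, a description of points that share their libraries and groups. Of these promoters, the TUBB stretch printed above holds a CCAAT box and that of TUBA1B does not. Whether this bears on their levels was not tested.

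TUBB2A, a class II isotype that is abundant in brain, had the fewest reads of the 10 genes and was the one that rose most at day 7. It was at 5.79, 5.65 and 5.95 CPM in 2D (352 to 525 reads), at 13.5, 17.0 and 18.05 CPM in 3D_7d, and at 8.54, 8.97 and 8.75 CPM in 3D_14d. The 3 groups did not overlap and 2D was the lowest. Its level was 2.80-fold higher in 3D_7d (1.48, SE 0.19, edgeR adjusted p = 7.44e-05) and 1.51-fold higher in 3D_14d (0.59, SE 0.18, adjusted p = 0.0233), and it dropped by 0.89 between them (SE 0.18, adjusted p = 0.00441). The day 14 call was lost without 2D replicate 1 (adjusted p = 0.0899), 2D replicate 2 (0.112) or 2D replicate 3 (0.0845), and with total counts alone (0.39, adjusted p = 0.115). Its near-identical neighbour TUBB2B did not exceed 0.754 CPM in any sample.

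TUBB4B, a widely expressed class IV isotype, was above 2D at day 7 and spread out at day 14. It was at 431, 419 and 405 CPM in 2D, 538, 495 and 512 CPM in 3D_7d and 411, 309 and 241 CPM in 3D_14d. The day 7 samples were all above 2D, and day 14 replicate 1 lay within the 2D range. Neither difference from 2D was called (0.30, edgeR adjusted p = 0.18, and −0.39, adjusted p = 0.10), but without 3D_14d replicate 1 the day 14 value was −0.60 (adjusted p = 0.00276) and the day 7 value of 0.29 was called (adjusted p = 0.0447). From day 7 to day 14 it fell 1.61-fold (−0.69, SE 0.17, adjusted p = 0.0119).

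TUBB6, the class V isotype, was not called at day 7 and was lower at day 14. It was at 337, 345 and 322 CPM in 2D, 270.3, 344 and 393 CPM in 3D_7d and 233, 255.4 and 171 CPM in 3D_14d. The day 7 samples reached from below to above the 2D range (0.0052, SE 0.18, edgeR adjusted p = 0.98), and all day 14 samples were below it (−0.61, SE 0.18, adjusted p = 0.0179). The day 14 call was lost without 2D replicate 2 (−0.62, adjusted p = 0.0517). The fall from day 7 (−0.61, SE 0.18, adjusted p = 0.0222) was lost without 3D_7d replicate 2 (0.0775), 3D_7d replicate 3 (0.118) or 3D_14d replicate 3 (0.0568). AFG3L2, which overlaps its exons on the other strand, had means of 112, 174 and 119 CPM in 2D, 3D_7d and 3D_14d.

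TUBG1, the gamma-tubulin of the nucleating ring, rose at day 7 and lay within or below the 2D range at day 14. It was at 167, 178 and 149.8 CPM in 2D, 315, 323 and 300.5 CPM in 3D_7d and 173, 156 and 114 CPM in 3D_14d. The day 7 samples stood apart from all others. The level was 1.90-fold higher at day 7 (0.92, SE 0.16, edgeR adjusted p = 0.000684) and fell 2.11-fold from there to day 14 (−1.08, SE 0.16, adjusted p = 0.000752). Day 14 and 2D differed by −0.16 (SE 0.16, adjusted p = 0.47), by −0.37 with total counts alone (adjusted p = 0.0448), and by 0.001 without 3D_14d replicate 3. RETREG3, which starts next to TUBG1 on the other strand and shares 3.36% of its exonic bases, had means of 97.4, 213 and 211 CPM in 2D, 3D_7d and 3D_14d. STMN1 and TUBG1 both carry TTTGGCGC near the start, and their levels moved in opposite directions at day 7. A link between the motif and the levels was not tested.

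Replicate 3 at day 14 held the lowest day 14 level of 9 of the 10 genes, the exception being TUBB2A. In 2D, replicate 3 likewise held the lowest 2D level of all but TUBA1A and TUBB2A. How often these samples were lowest over all genes is not given here. The fits below leave out only replicate 3 at day 14. Without 3D_14d replicate 3, 6 of the 10 genes were called down against day 7, 5 down against 2D, and 2 up against 2D. With all 9 samples these counts were 7, 5 and 1, beside 13.6%, 17.2% and 19% of all tested genes. The shares of all genes in the fit without that sample are not given here.

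**Figure D2:**
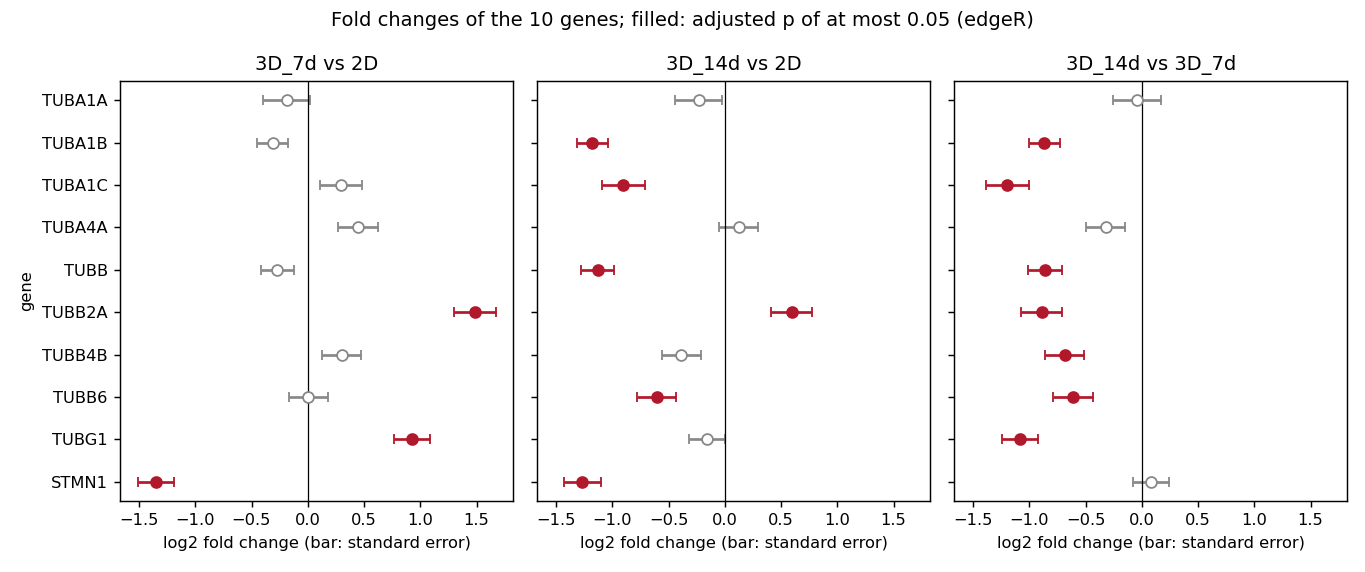
Log2 fold changes of the 10 genes (x axis) with standard errors as bars in the 3 comparisons, filled where the edgeR adjusted p is at most 0.05. At day 7, TUBB2A (1.48) and TUBG1 (0.92) lie right of 0 and STMN1 (−1.35) left, whereas in 3D_14d vs 3D_7d the 7 filled points lie left of 0 and STMN1 (0.08) does not.

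Per unit of length, the order of the genes changed with culture. The places of genes with repeated stretches, such as TUBA1B, depend on how shared reads were assigned. In 2D, STMN1 came first (524 ± 14.2 RPKM, SD, n = 3), followed by TUBB (396 ± 24.2), then TUBA1B (272 ± 15.6) and TUBB4B (267 ± 8.30), whose samples overlapped, and TUBA4A (238 ± 9.02). TUBB6 (107 ± 3.68) and TUBG1 (102 ± 8.82) overlapped, and below them came TUBA1A (50.1 ± 6.16), TUBA1C (8.83 ± 0.534) and TUBB2A (3.59 ± 0.0938). At day 7, TUBB4B (329.7 ± 13.9), TUBB (328 ± 23.1) and TUBA4A (324 ± 8.54) overlapped at the top. TUBA1B (219 ± 10.2), STMN1 (206 ± 38.9) and TUBG1 (194 ± 6.96) overlapped next, and TUBB6 (108 ± 19.9), TUBA1A (43.9 ± 6.22), TUBA1C (10.8 ± 0.676) and TUBB2A (10.03 ± 1.46) followed, the last pair overlapping. At day 14, TUBA4A (259.8 ± 66.5), STMN1 (218 ± 27.3), TUBB4B (205 ± 54.8) and TUBB (181 ± 30.4) each overlapped with the next. TUBA1B (120.2 ± 14.8), TUBG1 (91.9 ± 18.9), TUBB6 (70.5 ± 14.1) and TUBA1A (42.6 ± 13.3) did so too, above TUBB2A (5.42 ± 0.135) and TUBA1C (4.73 ± 1.25).

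The make-up of the tubulin RNA pool was expressed as each isotype's share of the summed RPKM of its family. With 3 against 3 samples, the exact two-sided permutation test cannot go below p = 0.1, and this value was reached wherever the groups did not overlap. TUBA4A made up 41.8% ± 0.355 of alpha-tubulin RNA in 2D, 54.15% ± 0.151 in 3D_7d and 60.35% ± 2.75 in 3D_14d (SD, n = 3), with no overlap between groups. TUBA1B made up 47.7% ± 1.21, 36.6% ± 1.16 and 28.6% ± 3.68 in the same order, again without overlap. TUBA1B thus had the larger mean share in 2D and TUBA4A in both 3D groups. TUBA1A held 7.34% to 9.86% and TUBA1C 1.10% to 1.81% on average.

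Among beta isotypes, TUBB took 50.1% ± 0.824 in 2D, 41.6% ± 2.03 in 3D_7d and 38.2% ± 4.77 in 3D_14d. TUBB4B took 33.9% ± 0.786, 41.8% ± 0.945 and 42.7% ± 6.16. For both, each 3D group was apart from 2D, while day 7 and day 14 overlapped (exact permutation p = 0.5 for TUBB and 1 for TUBB4B). TUBB6 averaged between 13.6% and 14.8%, TUBB4A between 1.55% and 3.15%, and TUBB2A had 0.455% in 2D, 1.28% in 3D_7d and 1.16% in 3D_14d. The ratio of summed alpha to summed beta RPKM was 0.722 ± 0.00945 in 2D, 0.76 ± 0.0105 in 3D_7d and 0.892 ± 0.0501 in 3D_14d, with no overlap between the groups. These shares compare samples with each other, and their absolute size depends on how shared reads were assigned.

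**Figure D3:**
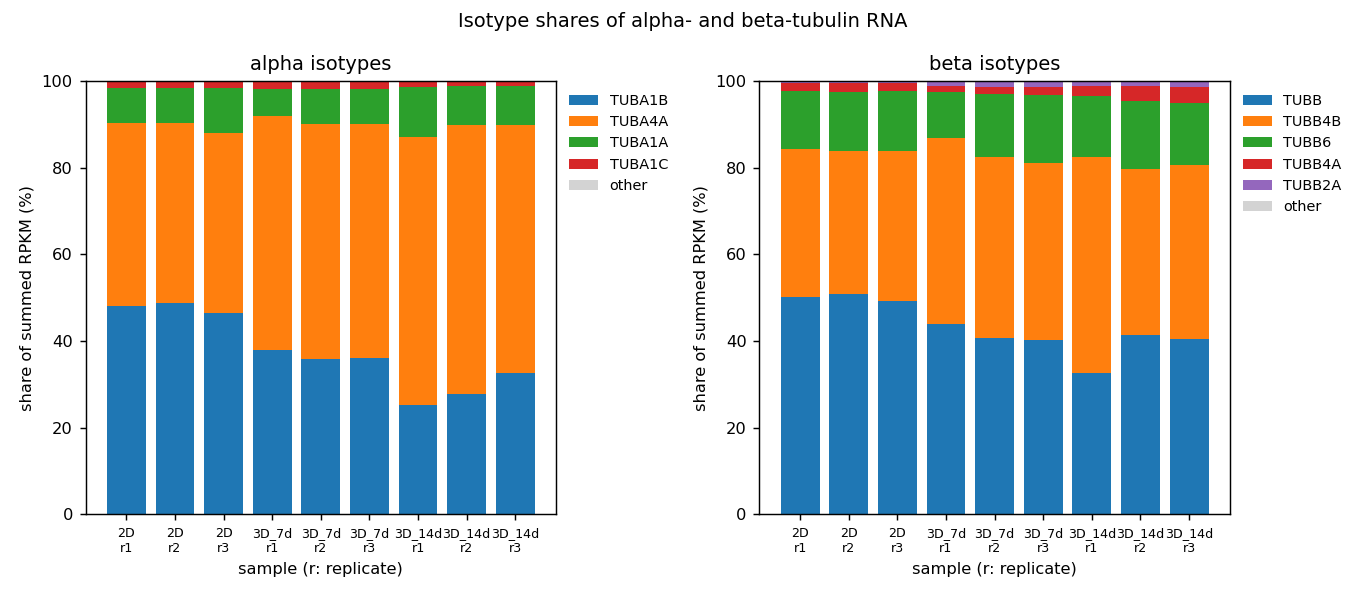
Share of each isotype in the summed RPKM (%) of alpha-tubulin (left) and beta-tubulin (right) in every sample, stacked to 100. TUBA4A takes 41.6% to 42.2% of the alpha pool in 2D and 57.2% to 62.1% at day 14, and TUBB takes 49.2% to 50.8% of the beta pool in 2D and 32.7% to 41.4% of it in 3D_14d.

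The genes most alike in pattern were ranked by the Pearson r of log2 CPM over the 9 samples among 8695 genes with a mean of at least 10 CPM, as a description. For STMN1 they were GSDMD (0.994), HMGB2 (0.993), HSD17B7P2 (0.987), AURKB (0.986) and HSD17B8 (0.985). For TUBA1B they were NASP (0.993), TYMS (0.986), POLR1E (0.984), GINS2 (0.982) and ZWINT (0.982). For TUBA4A they were STX18 (0.973), THAP4 (0.972), PAAF1 (0.966), ERAL1 (0.964) and DUS3L (0.957). HMGB2 is a chromatin protein, AURKB a mitotic kinase, NASP a histone chaperone, TYMS the thymidylate synthase and GINS2 a part of the replicative helicase. The other genes named are not described here, so those described do not stand for the lists. Among those left out are GSDMD, which ranked first for STMN1, and all of the genes named for TUBA4A. Within the 10 genes, TUBA1C and TUBB4B had an r of 0.955 and TUBB2A and STMN1 one of −0.83.

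Of 13 further tubulin genes, 4 were retained, and the other 9 stayed at or under 0.754 CPM. TUBE1, the epsilon-tubulin of centrioles, fell by 1.62 on the log2 scale (edgeR adjusted p = 5.2e-05) in 3D_7d and by 1.40 (adjusted p = 0.000185) in 3D_14d, from a mean of 35.7 CPM in 2D to 11.7 and 13.5 CPM. TUBG2, the second gamma-tubulin gene, was 0.42 lower at day 14 (adjusted p = 0.0447) and, unlike TUBG1, had a day 7 value of −0.39 (adjusted p = 0.0536). The TUBG2 call was lost under 11 of the 18 alternatives (adjusted p of up to 0.16), among them the replicate block, the fit of 6 samples and the fits without any 1 of the 2D samples or without replicate 2 or 3 of either 3D group. TUBB4A and TUBD1 were not called in any comparison, and none of the 4 was called between the time points.

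The partners of TUBG1 did not follow it as a block. For the lists of related genes, the shares of all tested genes called up and down were 22.2% and 21.2% at day 7, 19% and 17.2% at day 14, and 14.5% and 13.6% between the time points. Of 9 genes of the gamma-tubulin ring complex, 2 were called up and 3 down at day 7, none up and 5 down at day 14, and 2 up and 4 down between the time points. TUBGCP5 (1.65, edgeR adjusted p = 0.000621) and TUBGCP2 (0.79, adjusted p = 0.00349), which encode large ring subunits, were up at day 7. The small subunit genes MZT2A (−1.55, adjusted p = 0.000119) and MZT2B (−1.20, adjusted p = 0.00089) were down at the same time. At day 14, TUBGCP6 (−0.77, adjusted p = 0.00349) and TUBGCP3 (−0.71, adjusted p = 0.00636) were down. The median over the 9 genes was 0.03 at day 7, −0.13 with total counts alone and −0.0062 with TMM factors that leave out immunoglobulin, ribosomal protein and mitochondrial genes, and it was −0.62 at day 14.

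Augmin, which recruits the ring complex to existing spindle microtubules, was called in 1 direction only. None of its 7 retained genes was called up, 3 were down at day 7, 6 at day 14 and 5 between the time points, with medians of −0.35, −0.86 and −0.59. The 5 between the time points became 1 when the fit held 6 samples or lacked 3D_7d replicate 3, 2 when it lacked 3D_7d replicate 2, and 3 or 4 when it lacked any other sample. HAUS4 changed by −1.03 in 3D_7d (edgeR adjusted p = 0.00152) and −1.63 in 3D_14d (adjusted p = 0.000123). HAUS3 changed by −0.72 in 3D_7d (adjusted p = 0.0149) and HAUS5 by −1.01 in 3D_14d (adjusted p = 0.0003).

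Severing enzymes and depolymerising kinesins were split. Of 11 retained genes, 2 rose and 4 fell at day 7 (median 0.31), 1 rose and 6 fell at day 14 (median −0.61), and 5 fell between the time points. KATNAL1, which encodes a severing enzyme, rose by 0.86 on the log2 scale in 3D_7d (edgeR adjusted p = 0.00783) and by 0.85 in 3D_14d (adjusted p = 0.0104), the latter call being lost without 2D replicate 2 (0.0578). The mitotic kinesin genes were lower: KIF2C by −1.05 in 3D_7d (adjusted p = 0.00111) and −1.65 in 3D_14d (adjusted p = 8.99e-05), KIF18A by −1.79 in 3D_7d (adjusted p = 0.00163) and KIF18B by −1.43 in 3D_14d (adjusted p = 0.000146).

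Genes that feed or sense the tubulin pool were tested next. Of 13 prefoldin and tubulin cofactor genes, 3 rose and 1 fell at day 7, and 2 rose and 1 fell at day 14, counts that became 1 and 2, and 0 and 3, with total counts alone. The medians of 0.13 and 0.14 likewise turned to −0.03 and −0.08. TBCD (0.57, edgeR adjusted p = 0.00527) and TBCB (0.54, adjusted p = 0.0326), which assemble or take apart heterodimers, rose at day 7, when PFDN5, a subunit of prefoldin, fell (−0.76, adjusted p = 0.00855). At day 14, ARL2, the GTPase partner of TBCD, rose (0.62, adjusted p = 0.0347), as did TBCB (0.54, adjusted p = 0.0365), and TBCE fell (−0.74, adjusted p = 0.00813). Without any 1 of the 2D or 3D_7d samples, the TBCB calls at both time points and the ARL2 call were lost (adjusted p of up to 0.169), as were both day 14 calls without 3D_14d replicate 1. The calls of TBCD, PFDN5 and TBCE against 2D held under all alternatives. Between the time points, 1 of the 13 rose and 2 fell.

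All 4 listed genes of tubulin mRNA autoregulation were retained. TTC5, the reader of nascent tubulin, rose by 0.87 at day 7 (edgeR adjusted p = 0.00161), from a mean of 31.4 to 57.3 CPM, and CNOT11, its link to the deadenylase, rose by 0.62 (adjusted p = 0.0365). The CNOT11 call was lost without any 1 of the 2D or 3D_7d samples and with total counts alone (adjusted p of up to 0.129). SCAPER, the adaptor between them, fell by 0.88 in 3D_7d (adjusted p = 0.00675) and by 0.76 in 3D_14d (adjusted p = 0.0182), and CNOT10 fell by 0.52 in 3D_14d (adjusted p = 0.0267). Without 3D_14d replicate 3 neither day 14 call held (adjusted p = 0.0509 for SCAPER), and that of CNOT10 was also lost without 2D replicate 2 or 3 (up to 0.0816). Between the time points 2 of the 4 fell and none rose.

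Of 21 retained microtubule-associated genes, 5 rose and 2 fell at day 7, 4 rose and 2 fell at day 14, and 3 rose and 5 fell between the time points, where 2 fell without 3D_7d replicate 2 and 3 without 3D_7d replicate 3. Their medians were 0.03 and 0.07 in the comparisons with 2D and −0.12 and −0.13 with total counts alone. DCTN1, the large dynactin subunit, rose by 1.41 at day 7 (edgeR adjusted p = 0.000155) and MAP1S by 0.97 (adjusted p = 0.000536), while MAP7D2, at under 2 CPM, fell by 2.37 (adjusted p = 0.00387) and CLIP4 by 0.60 (adjusted p = 0.00707). At day 14, MAP1S (1.16, adjusted p = 0.000235) and MAP7D1 (1.23, adjusted p = 0.000273) were up. CKAP5, which speeds microtubule growth, was down by 1.11 on the log2 scale (−1.11, adjusted p = 0.00114), as was MAP7D3 (−0.72, adjusted p = 0.00911).

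Of 16 retained tubulin-modifying genes, 2 rose and 4 fell at day 7, 1 rose and 1 fell at day 14, and 3 rose and 5 fell between the time points, with medians of −0.11, −0.23 and −0.10. Between the time points, 1 to 3 rose and 2 to 4 fell when any 1 sample was left out. TTLL4, a glutamylase, rose by 1.501 on the log2 scale at day 7 (edgeR adjusted p = 1.45e-05) and TTLL12 by 0.62 (adjusted p = 0.0255). The glutamylase subunit TTLL1 (−0.67, adjusted p = 0.0341) and the alpha-tubulin acetyltransferase ATAT1 (−1.003, adjusted p = 0.0355) fell at day 7. None of the 4 falls at day 7 was called when replicate 2 or 3 of either group, 2D or 3D_7d, was left out (adjusted p of up to 0.111 for TTLL1 and 0.116 for ATAT1), and the TTLL1 call was also lost without replicate 1 of either group. The TTLL12 call was lost without replicate 1 or 3 of 2D or 3D_7d and with total counts alone (up to 0.151). At day 14 the deacetylase SIRT2 rose by 0.65 (adjusted p = 0.00273), and VASH2, which removes the C-terminal tyrosine of alpha-tubulin, fell by 2.28 (adjusted p = 0.000294) from 5.85 to 1.20 CPM.

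**Figure D4:**
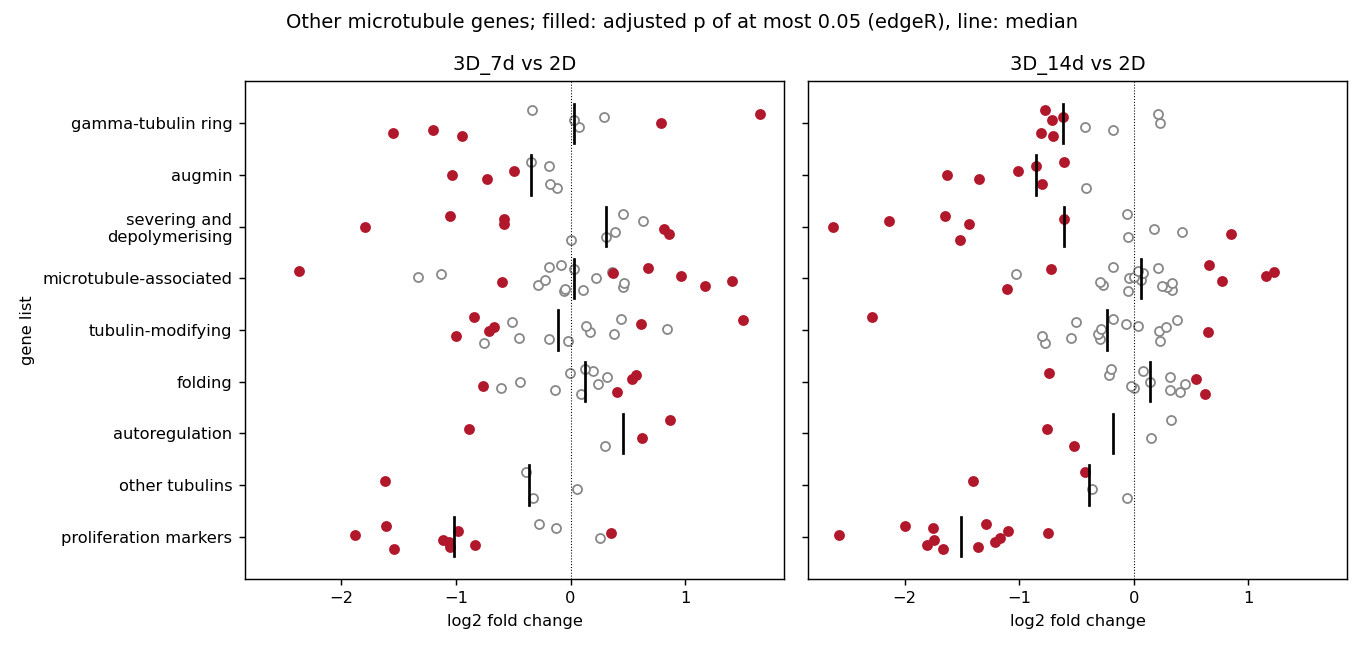
Log2 fold change (x axis) of each retained gene in 9 lists of related genes (rows) in 3D_7d vs 2D and 3D_14d vs 2D, filled where the edgeR adjusted p is at most 0.05, with a line at the list's median. Augmin and proliferation markers lie mostly left of 0 in both panels, with medians of −0.35 and −1.01 at day 7 and −0.86 and −1.51 at day 14, while the ring complex holds called genes on both sides at day 7.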

How the data were processed

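RNA of MEC1 cells was measured in 3 samples of each of 3 conditions. The authors trimmed reads with Trimmomatic (version 0.39), aligned them to GRCh38 with STAR (version 2.5.3a) and assigned them to GENCODE genes with featureCounts (version 1.6.4). The deposited values are raw counts per gene symbol with exon lengths, without normalization. Here, 13463 of the 51726 genes with any count were kept, those reaching more than 1 CPM in 3 or more samples. TMM factors and 1 quasi-likelihood model of all 9 samples with 3 contrasts came from edgeR (version 4.0.16, R version 4.3.3), and p-values were adjusted by Benjamini-Hochberg over all retained genes. Log2 values used a prior count of 2. The pipeline was tested on simulated data. Replicates are not stated to be separate cultures, so p-values measure the spread between these samples, which may be technical. Over all genes, replicates of a group differed by more than counting error (chi-square per gene of 17.04 to 207 between pairs).

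The 10 genes and the gene lists were chosen with earlier results of these data known. Named were the 10 genes, the 2 genes with the smallest p-values per direction of each other list in both comparisons with 2D, and the 5 genes most like STMN1, TUBA1B and TUBA4A, except 1 gene that is not reported here. Shares and the alpha to beta ratio used an exact two-sided permutation test. Alternatives were other scalings, DESeq2 (version 1.42.0), other filters, fits of 6 samples, a replicate block, removal of a gene length trend, a minimum absolute log2 fold change of 1, and leaving out each sample.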

Additional observations from a re-analysis of the deposited data

Results flagged for a closer look

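For 7 of the 10 genes the fold change against 2D differed between day 14 and day 7, by the test of the difference itself (edgeR, 3D_14d vs 3D_7d, adjusted p of 0.000752 to 0.0222). It is the comparison between the time points already given above, in which 14.5% of all tested genes were called up and 13.6% down. The log2 fold change at day 14 minus that at day 7 was −0.87 for TUBA1B, −1.20 for TUBA1C, −0.86 for TUBB, −0.89 for TUBB2A, −0.69 for TUBB4B, −0.61 for TUBB6 and −1.08 for TUBG1. In TUBA1C and TUBB4B the estimate changed sign between the time points, from 0.29 to −0.90 and from 0.30 to −0.39, although the day 7 values were not called and the day 14 value of TUBB4B was not called. In TUBG1 and TUBB2A the day 7 rise was called, and the day 14 value was −0.16 (not called) and 0.59. The difference for TUBB6 was not called without 3D_7d replicate 2 (adjusted p = 0.0775), 3D_7d replicate 3 (0.118) or 3D_14d replicate 3 (0.0568). STMN1 (0.08), TUBA1A (−0.04) and TUBA4A (−0.32) did not pass this test. Both time points were extracted in the same way.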

How the results depend on the processing

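The 30 fold changes of the 10 genes were recomputed under 18 alternatives: 487 of 540 values kept direction and call, 11 lost the call, 25 gained it and 17 changed sign, and 17 of the 30 kept both in all 18. Where no sentence gives a cause, the cause was not tested. With a 2-fold change (1 on the log2 scale) required, 1 gene was up at day 7, 0 up and 3 down at day 14, and 2 down between the time points. Scaling by total counts alone moved the median of all genes by −0.16 at day 7 and −0.18 at day 14. It gave 3 of the 10 genes down at day 7, and 0 up and 7 down at day 14. The summed TUBA1 value at day 7 was then −0.40, and TUBB6 at day 7 (−0.15) and TUBA4A at day 14 (−0.095) changed sign. TUBB6 at day 7, at 0.0052 in the report, was −0.0031 with DESeq2's size factors or its Wald test, −0.031 with TMM factors without immunoglobulin, ribosomal protein and mitochondrial genes, −0.0097 with 6 samples and −0.10 without the length trend. DESeq2 called 2 genes down at day 7. Without a filter, or with the 6 samples of the contrast, 0 were up at day 14. The 6-sample fit called 5 up and 3 down at day 7 and gave −0.27 for the summed TUBA1 genes. Removing the length trend gave 4 up and 2 down at day 7, and 1 up and 6 down at day 14. The shares of all genes called under the alternatives are not given here, so their counts cannot be set beside them. Adding the other alpha isotypes and pseudogenes to the TUBA1 sum, which brings in the abundant TUBA4A, gave 0.15, −0.30 and −0.44 in the 3 comparisons. Leaving out 1 sample gave 2 to 4 up and 1 to 2 down at day 7, and 0 to 2 up at day 14. The day 14 count of genes down was 4 without 2D replicate 2 and 6 without 3D_14d replicate 1. Leaving out 1 sample also gave −0.17 to 0.12 for TUBB6 at day 7 and −0.28 to 0.001 for TUBG1 at day 14. Between the time points it gave −0.27 to 0.17 for TUBA1A. The TUBB4B share between the time points moved by −2.67 to 3.09 percentage points, negative without 3D_14d replicate 1. Same-numbered samples of different groups had correlations of −0.1 to 0.185 between their deviations from the group means, so the numbers were not used as pairs. With the replicate block the up and down counts were 3 and 1 at day 7, 1 and 5 at day 14, and 0 and 7 between the time points, TUBA4A at day 7 (0.45, adjusted p = 0.0493) being the added call. Depth limits precision most for low genes: TUBB2A, at 352 to 952 reads per sample, had the fewest of the 10 genes, and listed genes near 1 CPM had fewer still.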
